A study of Mus musculus with 7 samples.

Results

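Regenerative and YAP-linked genes were followed in the ileal RNA-seq of mice on a normal or a low cystine diet: Yap1, Cyr61, Ctgf, Areg, Ereg, Clu, Ly6a, Anxa1 and Il33. They were chosen by name, and all 9 were found among the 38293 genes of the count table. The mice were male C57BL/6NRJ animals of 8 weeks that ate an AIN93G diet high in fat (40 en% fat) and low in calcium. After 1 week of acclimatization they received either the normal cystine diet (0.38% cystine, normal cys, n = 4) or the low cystine diet (0.08%, low cys, n = 3, with alanine in its place) for 2 weeks. Both groups therefore carried the high fat and low calcium diet, and no mouse on ordinary chow was included. The tissue was scraped from the distal end of the small intestine. The paper describes its colon scrapings as epithelium with lamina propria and without the muscle layer, and the small intestine as handled similarly. Smooth muscle genes were still detected in every library, with values given below. Replicate numbers are names only and pair nothing across diets. Each library was taken as 1 mouse, which the labels do not state, so p-values measure the spread between these libraries.

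YAP1 is a coactivator that is held in the cytoplasm by the Hippo kinases and, once in the nucleus, binds TEAD transcription factors at target genes such as Cyr61 and Ctgf. In the intestine it is best known for its role in regeneration, when injured epithelium passes through a fetal-like state marked by Ly6a (Sca-1), Anxa1 and Clu, and when the EGF receptor ligands amphiregulin and epiregulin are produced. Il33 encodes an alarmin of the IL-1 family that is released from damaged barrier cells.

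The normal cys libraries held 19712355 to 22412703 counts and the low cys libraries 14888760 to 21942518. Expression is given as CPM (counts scaled to the library size after TMM), and levels between genes as RPKM (CPM per kilobase of the exon length in the table). Of the 38293 genes, 14869 passed the filter on low counts and were tested by the quasi-likelihood test of edgeR, and 8 of the 9 genes were among them. No gene of the genome reached an adjusted p under 0.05 in edgeR (0% called), while 817 (5.49%) had an unadjusted p under 0.05, of which 421 (2.83% of those tested) were lower on low cys. Limma-voom called 0 genes after adjustment with 935 under an unadjusted p of 0.05, and DESeq2 called 16, none of them among the 9. All 10 epithelial markers examined were detected in every library, with a summed level of 16232 to 17369 CPM on normal cys and 13117 to 15354 CPM on low cys. Markers of connective tissue were low but present, at 32.3 to 37.6 CPM summed over 10 stromal genes on normal cys and 45.8 to 53.3 CPM on low cys.

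None of the 8 genes tested rose or fell with cystine restriction after adjustment, and Ctgf had too few counts to be tested. Estimates were lower on low cys for 6 of the 8 tested genes and higher for 2, with a median log2 fold change of -0.18 against 0.01 over all genes tested. Cyr61 alone had an unadjusted p under 0.05, and it was also the only one in which every low cys library lay below every normal cys library. Over the genome 522 genes (3.51%) were separated in that direction and 493 (3.32%) in the other. The larger feature of the group lay within the diets, where Ly6a, Clu and Il33 differed between mice on the same food by more than almost any other gene.

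**Figure D1:**
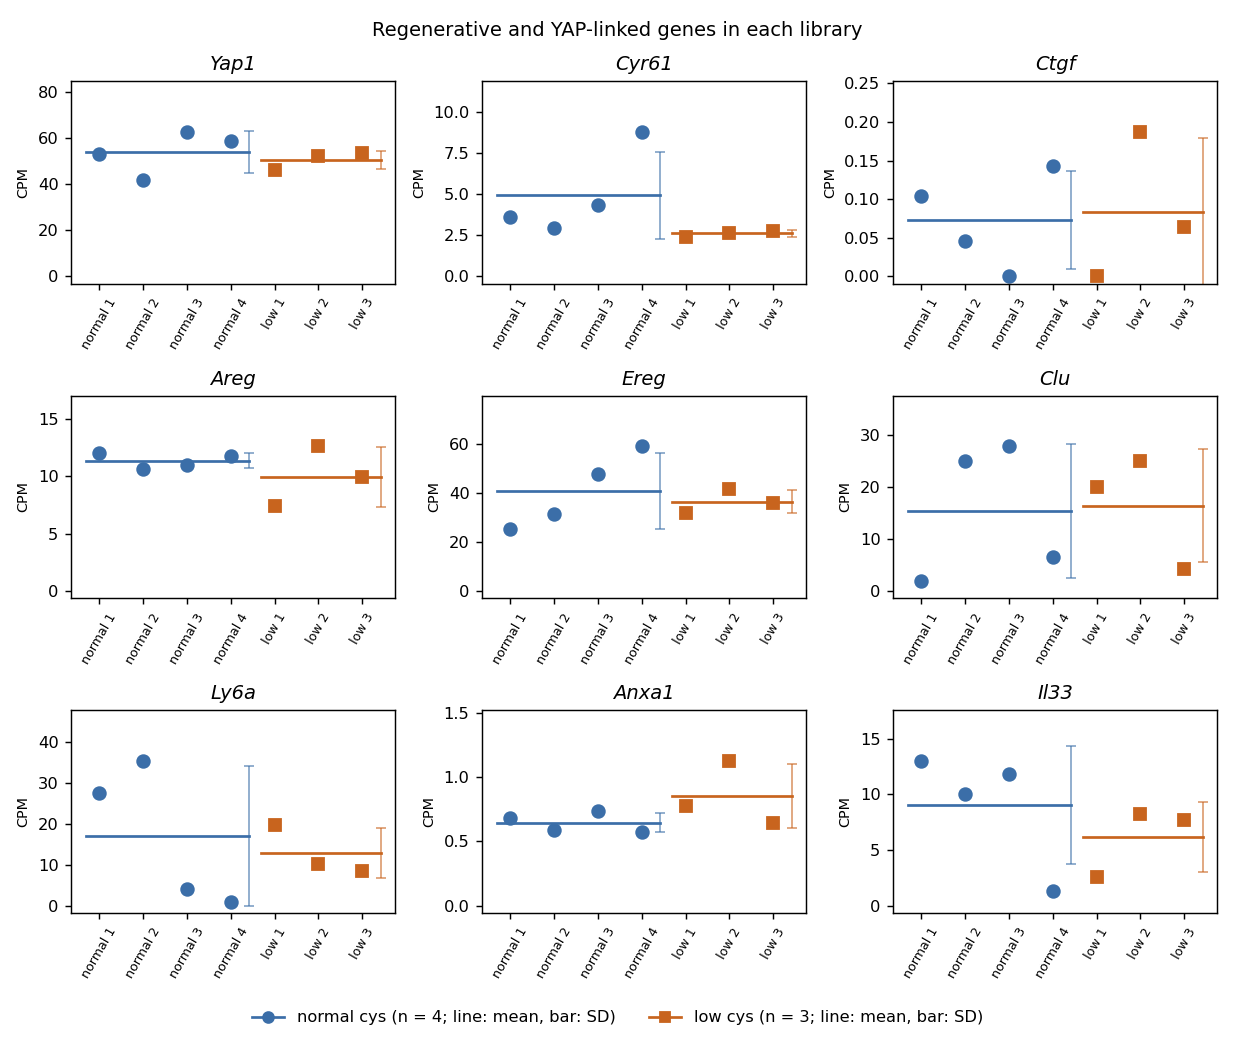
CPM of the 9 genes in each library, on linear axes that differ between panels. Blue circles are normal cys (n = 4), orange squares low cys (n = 3), lines are means and bars SD, which run below the axis where the SD exceeds the mean. Only Cyr61 has all orange squares below all blue circles, and Clu, Ly6a and Il33 spread widely within a diet.

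Per length of transcript, Ly6a had the highest mean level, at 20.8 ± 20.9 RPKM on normal cys and 15.6 ± 7.42 RPKM on low cys (SD, n = 4 and 3 here and below). Ereg followed with 9.87 ± 3.74 and 8.83 ± 1.15 RPKM, and Areg with 9.46 ± 0.540 and 8.32 ± 2.18 RPKM. These 3 neighbours did not differ beyond their spread. Yap1 was at 5.85 ± 0.978 and 5.47 ± 0.431 RPKM and Clu at 4.46 ± 3.76 and 4.78 ± 3.15 RPKM, which overlapped as well. Il33 reached 3.13 ± 1.83 and 2.14 ± 1.08 RPKM, and Cyr61 2.43 ± 1.30 and 1.28 ± 0.0901 RPKM. Anxa1 was far lower, at 0.247 ± 0.0293 and 0.325 ± 0.0952 RPKM, and Ctgf lower again, at 0.0256 ± 0.0221 and 0.0294 ± 0.0333 RPKM. The order of the 9 means was the same on both diets.

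Yap1 (ENSMUSG00000053110; chromosome 9, 7931999 to 8004596, minus strand, GRCm38) overlapped between the diets. Its 4 normal cys libraries had 53.1, 41.9, 62.8 and 58.6 CPM, in the order of replicates 1 to 4 that is kept below. The 3 low cys libraries had 46.0, 52.2 and 53.5 CPM, all inside the normal cys range. The log2 fold change, low cys minus normal cys, was -0.10 (SE 0.154, 95% interval -0.44 to 0.25, edgeR adjusted p = 0.871). The exact permutation test (two-sided, 35 assignments, smallest possible p 0.0286) gave p = 0.571. Within the diets Yap1 had an SD of 0.21 on the log2 scale, and 32.1% of the tested genes had a smaller one, as did 54.8% of genes within 2-fold of its level. On the opposite strand it overlaps Gm20416.

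Around Yap1, 19 of 21 genes of the Hippo pathway and the YAP partners were tested, and none reached an unadjusted p under 0.05, with 13 estimates higher and 6 lower and a median of 0.10. Tead3, a YAP-binding transcription factor, had 22.9 ± 1.30 CPM on normal cys and 21.8 ± 3.11 CPM on low cys (log2 fold change -0.07, unadjusted p = 0.626). Tead1, another, had 5.44 ± 2.89 and 8.37 ± 2.28 CPM (0.63, unadjusted p = 0.131). Wwtr1, which encodes the YAP relative TAZ, had no more than 12 counts in a library and was not tested. Amot, a scaffold that binds YAP, had 15.3 ± 4.76 and 20.9 ± 3.10 CPM (0.45, unadjusted p = 0.0794). Ptpn14, a phosphatase that binds YAP and is itself a target gene, had 0.432 ± 0.274 and 0.908 ± 0.350 CPM (1.07, unadjusted p = 0.0854). The diets overlapped for both.

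Cyr61 (ENSMUSG00000028195, now Ccn1; chromosome 3, 145646971 to 145649985, minus strand) encodes a secreted matricellular protein and is among the most used readouts of YAP activity. Its promoter was taken from RefSeq (GRCm38.p6), 250 bases before to 50 after the start, because this gene is the only one of the group that differed nominally. The run at chr3:145649936-145650235 is given 5′ to 3′ on the gene's strand. The capitals mark CATTCC, the core letters of the TEAD motif, which were searched on both strands (GGAATG on the other).
Cyr61 promoter: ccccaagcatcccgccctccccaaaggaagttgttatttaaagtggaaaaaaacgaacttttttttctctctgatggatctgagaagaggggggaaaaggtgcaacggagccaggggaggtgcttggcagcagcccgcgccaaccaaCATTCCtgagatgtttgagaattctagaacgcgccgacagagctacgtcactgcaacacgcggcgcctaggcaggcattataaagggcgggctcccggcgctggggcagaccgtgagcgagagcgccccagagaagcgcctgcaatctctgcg
The motif begins 103 bases before the start. It occurs in 4817 of 32851 RefSeq mouse promoters of this length (14.7%), so its presence is a description and does not show binding.

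The normal cys libraries had 69, 65, 83 and 184 Cyr61 counts, or 3.61, 2.95, 4.36 and 8.79 CPM. The low cys libraries had 59, 42 and 43 counts, or 2.41, 2.62 and 2.77 CPM. Every low cys library was below the lowest normal cys one, and normal cys replicate 4 stood above all others. The mean was 4.93 ± 2.64 CPM on normal cys and 2.60 ± 0.183 CPM on low cys, a log2 fold change of -0.92 (SE 0.386, 95% interval -1.80 to -0.05) or a ratio of 0.527. The unadjusted p was 0.0403 and the edgeR adjusted p 0.794, and the exact permutation test of the CPM gave p = 0.114. Without normal cys replicate 4 the log2 fold change was -0.49 (edgeR unadjusted p = 0.0933). The unadjusted p was also over 0.05 without normal cys replicate 3 (0.0528) and without low cys replicate 1 (0.108), 2 (0.0914) or 3 (0.0742). Beside this 1 of 8 genes stands the background of 2.83% of all genes tested in this direction, and nothing is read from a single gene. The stromal markers moved the other way: their mean log2 CPM was 0.68 to 1.56 on normal cys and 1.86 to 2.24 on low cys, without overlap. With this score in the model the estimate for Cyr61 was 0.20 (edgeR unadjusted p = 0.735), and as the score separates the diets, the share of stroma and the diet cannot be told apart. In these bulk samples fewer cells of a type and less RNA per cell cannot be told apart either.

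Ctgf (ENSMUSG00000019997, now Ccn2; chromosome 10, 24595442 to 24598683, plus strand), the close relative of Cyr61, was barely detected. It had 2, 1, 0 and 3 counts on normal cys and 0, 3 and 1 on low cys. That is 10 counts in all against 545 for Cyr61. A count of 0 allows up to 3 counts, which is 0.158 CPM in normal cys replicate 3 and 0.122 CPM in low cys replicate 1, and a diet difference was not detectable at this depth. The other 4 members of the CCN family (Nov, Wisp1, Wisp2 and Wisp3) had at most 1 count in a library. On the opposite strand Ctgf overlaps Gm15270.

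Of 23 other YAP-TEAD target genes 17 were tested. Of these, 1 had an unadjusted p under 0.05, and it was higher on low cys: Igfbp3, a binding protein of insulin-like growth factors, at 3.97, 2.50, 1.52 and 0.717 CPM on normal cys against 8.28, 5.25 and 8.44 CPM on low cys. The diets did not overlap for it (log2 fold change 1.75, SE 0.477, edgeR adjusted p = 0.794, exact permutation p = 0.0286, the smallest possible). It stood opposite to Cyr61 in direction. Among all genes tested, 5.49% had such an unadjusted p in either direction. For 3.32% the diets were apart with low cys higher, and nothing is read from this single gene. The stromal markers were also higher on low cys without overlap, and their part in the Igfbp3 level was not tested. The list of targets as a whole had 8 estimates higher and 9 lower, with a median of -0.15. Amotl2, a YAP target that also restrains YAP, had 19.5 ± 5.87 and 13.6 ± 4.24 CPM (-0.53, unadjusted p = 0.0980), and Ankrd1, a common target in other tissues, had 0 counts in all 7 libraries.

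**Figure D2:**
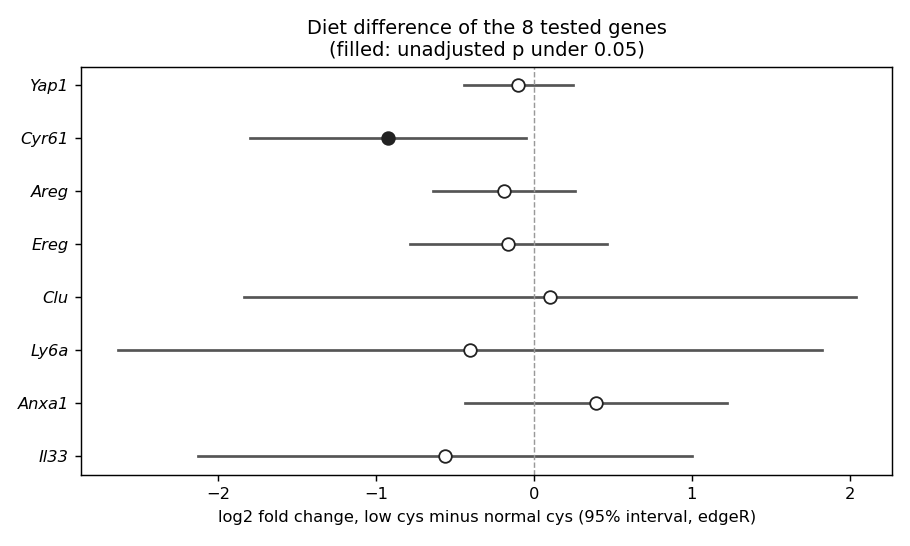
Log2 fold change, low cys minus normal cys, of the 8 tested genes with the 95% interval of edgeR; a filled point has an unadjusted p under 0.05. Only the interval of Cyr61 (-1.80 to -0.05) leaves out 0, and those of Ly6a (-2.63 to 1.83) and Clu (-1.83 to 2.04) are the widest.

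Areg and Ereg encode amphiregulin and epiregulin, ligands of the EGF receptor, and lie 45965 bases apart on the plus strand of chromosome 5 (Areg, ENSMUSG00000029378, 91139615 to 91148432; Ereg, ENSMUSG00000029377, 91074617 to 91093649). Of the 5 genes with a RefSeq promoter entry (Cyr61, Areg, Yap1, Anxa1 and Il33), Areg is the one whose promoter holds TGACGTCA, the palindrome bound by CREB, marked in capitals at chr5:91139523-91139560 on the plus strand.
Areg promoter window: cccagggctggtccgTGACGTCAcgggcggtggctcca
These letters occur in 588 of the 32851 promoters (1.79%) and begin 61 bases before the start.

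Areg was even on normal cys, at 12.0, 10.6, 11.0 and 11.8 CPM. On low cys it was at 7.39, 12.6 and 9.92 CPM, so that replicate 2 was the highest of the 7 and replicates 1 and 3 the lowest. The log2 fold change was -0.19 (SE 0.199, 95% interval -0.64 to 0.26, edgeR adjusted p = 0.83, exact permutation p = 0.371). Ereg ranged more widely on normal cys, at 25.1, 31.4, 47.6 and 59.1 CPM. On low cys it was at 31.996, 41.5 and 36.1 CPM, inside that range. Its log2 fold change was -0.16 (SE 0.275, 95% interval -0.78 to 0.46, edgeR adjusted p = 0.880, exact permutation p = 0.714). Despite their closeness on the chromosome the ligands did not have their high libraries in common: Ereg peaked in normal cys replicate 4 and Areg in low cys replicate 2. Ereg overlaps Gm19610 on the opposite strand.

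Of 13 other ligands and receptors of the EGF family 10 were tested, with 4 estimates higher, 6 lower and a median of -0.06. The receptor Egfr had 20.98 ± 5.31 CPM on normal cys and 19.0 ± 0.420 CPM on low cys (-0.14, unadjusted p = 0.501). Hbegf, a ligand made after injury, had 31.3 ± 12.6 and 33.5 ± 10.6 CPM (0.10, unadjusted p = 0.805). Lrig1, which restrains EGF receptors and marks crypt stem cells, had an unadjusted p of 0.0431, with 19.9, 16.8, 10.8 and 8.69 CPM on normal cys against 26.2, 17.5 and 23.2 CPM on low cys (0.67, SE 0.284, edgeR adjusted p = 0.794). Its diets overlapped.

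Clu (ENSMUSG00000022037; chromosome 14, 65968483 to 65981548, plus strand) encodes clusterin, a secreted chaperone that marks the rare revival stem cells of damaged crypts and is also made by follicular dendritic cells of lymphoid tissue. Normal cys libraries had 38, 548, 529 and 138 counts, or 1.99, 24.9, 27.8 and 6.59 CPM. Low cys libraries had 490, 400 and 66 counts, or 20.0, 25.0 and 4.25 CPM. On each diet the libraries were therefore either high or low, with 3 of the 7 at 6.59 CPM or less and 4 at 20.0 to 27.8 CPM. The highest normal cys library was 14.0 times the lowest, and on low cys the ratio was 5.88. The means were 15.3 ± 12.9 and 16.4 ± 10.8 CPM, a log2 fold change of 0.10 (SE 0.845, 95% interval -1.83 to 2.04, edgeR adjusted p = 0.981, exact permutation p = 0.914). The SD within diets was 1.62 on the log2 scale, and 99.6% of the tested genes had a smaller one, as did 99.8% of genes within 2-fold of its level.

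The genes with the pattern most like that of Clu over the 7 libraries, among 13322 genes with a mean of at least 1 CPM, were Ms4a1 (Pearson r of log2 CPM 0.989), Cxcl13 (0.971) and Fcrla (0.970). Ms4a1 encodes the B-cell antigen CD20 and Cxcl13 the chemokine of B-cell follicles. Ms4a1 was at 0.732, 8.08, 7.25 and 1.53 CPM on normal cys and at 6.24, 7.94 and 1.22 CPM on low cys. Cr2, the complement receptor of B cells and follicular dendritic cells, was at 0.366, 7.49, 4.73 and 0.908 CPM and at 4.37, 9.44 and 0.129 CPM. The same 3 libraries were low for all of these genes: normal cys replicates 1 and 4 and low cys replicate 3. Over a list of 9 genes of B-cell follicles, made after this pattern was seen, the summed level ran from 8.46 to 75.9 CPM on normal cys and from 10.8 to 76.1 CPM on low cys, and the mean log2 CPM of its 8 tested genes correlated with Clu at r = 0.96. The list holds Ms4a1 and Cxcl13, which were picked for their likeness to Clu, so its correlation follows in part from that choice. These correlations describe 7 libraries of differing depth and were chosen as the highest of many. The part of lymphoid tissue in the Clu level was not tested.

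Ly6a (ENSMUSG00000075602; chromosome 15, 74994878 to 74997634, minus strand) encodes Sca-1, an interferon-inducible surface protein that marks regenerating epithelium as well as endothelium and lymphocytes. It varied more than any other gene of the group. Normal cys libraries had 529, 781, 78 and 18 counts, or 27.6, 35.5, 4.10 and 0.860 CPM. Low cys libraries had 484, 164 and 131 counts, or 19.8, 10.2 and 8.44 CPM. The normal cys libraries thus lay at both ends, with replicates 1 and 2 above and replicates 3 and 4 below all low cys libraries. The ratio of highest to lowest was 41.3 on normal cys and 2.34 on low cys. The means were 17.02 ± 17.1 and 12.8 ± 6.08 CPM, a log2 fold change of -0.40 (SE 0.973, 95% interval -2.63 to 1.83, edgeR adjusted p = 0.917, exact permutation p = 0.686). The SD within diets was 1.94 on the log2 scale, above that of 99.9% of the tested genes. Of its 1297 stretches of 50 bases, 246 (19.0%) also occur in Ly6c1, Ly6c2, Ly6i or I830127L07Rik, so part of its reads may have been left out or moved in counting.

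Ly6e, a relative that is also induced by interferon and shares no such stretch with Ly6a, had nearly the same pattern (Pearson r of log2 CPM 1.000, Spearman rho 1.000). It was at 112, 122, 47.2 and 23.5 CPM on normal cys and at 93.8, 72.2 and 65.9 CPM on low cys. The 7 libraries therefore had the same order for both genes, while the range of Ly6e was narrower. U2af2 (r = 0.992) and Slc17a9 (0.991) came next. All 3 were picked as the highest of 13322 genes over these same libraries, so their likeness is a description only. The order of the libraries in Ereg was close to the opposite, with normal cys replicate 4 highest in Ereg and lowest in Ly6a. Of 11 other genes of the Ly6 family 4 were tested and none had an unadjusted p under 0.05. Ly6g6d was at 1.25 ± 0.543 and 0.668 ± 0.186 CPM (-0.91, unadjusted p = 0.0695) and Ly6c1 at 0.425 ± 0.287 and 0.486 ± 0.569 CPM (0.30, unadjusted p = 0.758).

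Among interferon-stimulated genes 11 of 12 estimates were lower on low cys, with a median of -0.61 and 5 genes at an unadjusted p under 0.05. These were Rtp4 (-0.76), Irf7 (-0.72), Oasl2 (-0.76), Oas1a (-0.83) and Isg15 (-0.84), all with an edgeR adjusted p of 0.794. Of all genes tested 2.83% had such an unadjusted p in this direction. Every low cys library lay below every normal cys library for 4 of the 12, and for 3.51% of all genes tested. The list was not tested as a set. Irf7, the transcription factor of the interferon response, was at 174, 223, 157 and 161 CPM on normal cys and at 83.2, 128 and 115 CPM on low cys. The mean log2 CPM of the list was 5.39, 5.18, 4.57 and 4.17 on normal cys and 4.00, 4.77 and 4.28 on low cys. Low cys replicate 1 was lowest there but above 4 libraries in Ly6a. Over the 7 libraries the list and Ly6a correlated at r = 0.57 (Spearman rho 0.57). The part of interferon in the Ly6a level was not tested.

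Anxa1 (ENSMUSG00000024659; chromosome 19, 20373428 to 20390944, minus strand) encodes annexin A1, a phospholipid-binding protein of wound repair and a marker of the fetal-like epithelium. It was near the limit of detection, with 13, 13, 14 and 12 counts on normal cys and 19, 18 and 10 on low cys. In CPM these were 0.679, 0.590, 0.736 and 0.573 against 0.775, 1.12 and 0.644. Low cys replicates 1 and 2 lay above all normal cys libraries and replicate 3 among them. The log2 fold change was 0.39 (SE 0.367, 95% interval -0.44 to 1.22, edgeR adjusted p = 0.816, exact permutation p = 0.143). On the opposite strand it overlaps 1500015L24Rik.

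Of 17 other fetal-like and regenerative epithelial markers 13 were tested, with 7 estimates higher, 6 lower and a median of 0.07. S100a6, a calcium-binding protein, was at 52.1, 76.3, 62.6 and 120 CPM on normal cys and at 47.4, 50.8 and 48.6 CPM on low cys, with no overlap (-0.67, SE 0.259, unadjusted p = 0.0296, edgeR adjusted p = 0.794, exact permutation p = 0.114). As for Cyr61, its highest library was normal cys replicate 4. Anxa2, a relative of Anxa1, was at 1303 ± 108 and 1037 ± 87.5 CPM (-0.33, exact permutation p = 0.0571). Spp1, which encodes osteopontin, had at most 7 counts in a library.

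Il33 (ENSMUSG00000024810; chromosome 19, 29925114 to 29960718, plus strand) had 249, 220, 225 and 28 counts on normal cys, or 13.0, 9.99, 11.8 and 1.34 CPM. On low cys it had 63, 131 and 120 counts, or 2.57, 8.19 and 7.73 CPM. Normal cys replicate 4 was the lowest of all 7 libraries, and the other 3 normal cys libraries were above every low cys library. The means were 9.04 ± 5.28 and 6.16 ± 3.12 CPM, a log2 fold change of -0.56 (SE 0.682, 95% interval -2.13 to 1.00, edgeR adjusted p = 0.841, exact permutation p = 0.429). Without normal cys replicate 4 the log2 fold change was -0.93 (edgeR unadjusted p = 0.0454, adjusted p = 0.811), and without low cys replicate 1 it was -0.17 (unadjusted p = 0.815). With the stroma score in the model it was -3.26 (unadjusted p = 0.00433, adjusted p = 0.976), and as that score separates the diets, the share of stroma and the diet cannot be told apart here either. The SD within diets was 1.31 on the log2 scale, larger than for 99.0% of the tested genes.

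The genes most like Il33 over the libraries were Dnase1 (r = 0.966), Sdhc (0.962) and Qpctl (0.960). MHC class II genes, which present antigen on B cells, macrophages and part of the ileal epithelium, had a similar order. Their mean log2 CPM over 7 genes, a list made after this was seen, was 8.52, 8.48, 8.33 and 7.46 on normal cys and 7.56, 8.45 and 8.10 on low cys, and correlated with Il33 at r = 0.96. Cd74 of this list, the invariant chain, was at 2587, 2528, 2188 and 1340 CPM and at 1393, 2266 and 1993 CPM. The same normal cys replicate 4 and low cys replicate 1 were thus low in Il33 and in this list. None of the 7 genes had an unadjusted p under 0.05 between diets (median -0.20), with H2-Ab1 at -0.30 and H2-Eb1 at -0.28. Of 8 other genes around IL-33 only 3 were tested, and none had an unadjusted p under 0.05. Il4ra, the receptor chain shared by IL-4 and IL-13, was at 101 ± 30.4 and 78.5 ± 4.95 CPM (-0.36, unadjusted p = 0.116), and Il13ra1 at 188 ± 37.5 and 158 ± 39.2 CPM (-0.25, unadjusted p = 0.278). The IL-33 receptor Il1rl1 had at most 26 counts in a library, and Il13 and Il5 had 0 in all 7.

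**Figure D3:**
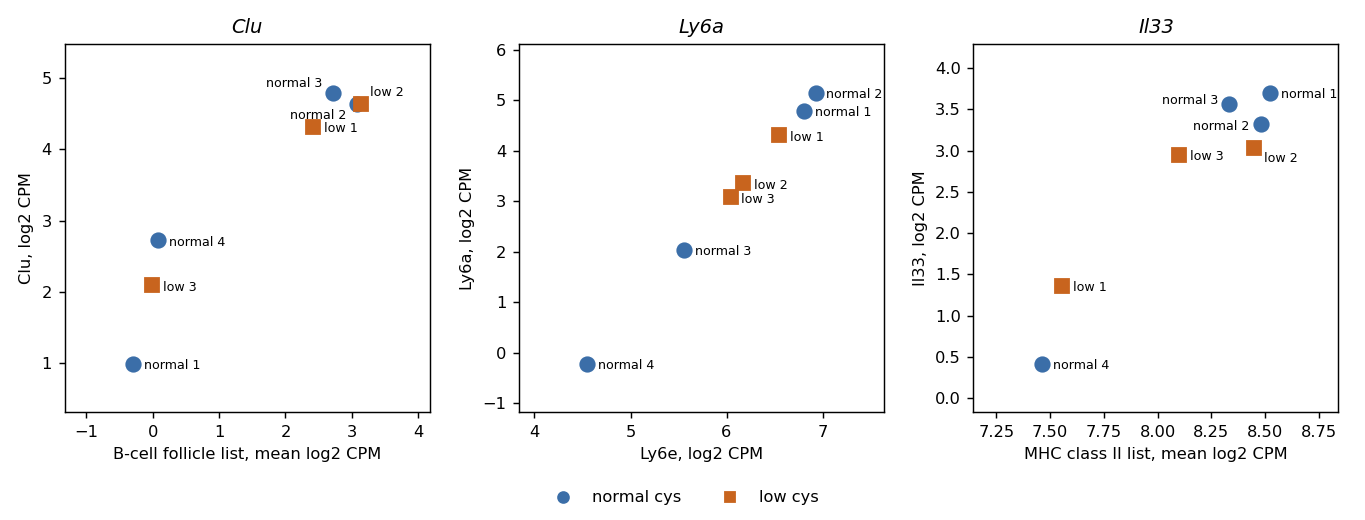
Log2 CPM of Clu, Ly6a and Il33 (vertical axes) in the 7 libraries against the mean log2 CPM of B-cell follicle genes, the log2 CPM of Ly6e and the mean log2 CPM of MHC class II genes (horizontal axes). Blue circles are normal cys and orange squares low cys. In each panel libraries of both diets lie along one rising band. The horizontal axes were picked for their likeness in these same libraries, so the bands follow from that choice.

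The promoters of Yap1, Anxa1 and Il33 were also found in RefSeq, and each held CATTCC (capitals), Il33 at both of its entries. Of the 9 genes, 5 had an entry, and that of Areg did not hold CATTCC. These letters occur in 4817 of the 32851 promoters (14.7%), so their presence does not show binding. The windows are shown so that the surroundings can be compared with that of Cyr61, and lie at chr9:8004717-8004752 (Yap1), chr19:20390887-20390921 (Anxa1), chr19:29924967-29925002 and chr19:29945668-29945703 (Il33). Each is written 5′ to 3′ on the strand that reads CATTCC, which is opposite to the gene for Yap1 and the first Il33 entry.
Yap1: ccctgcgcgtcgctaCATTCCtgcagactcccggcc
Anxa1: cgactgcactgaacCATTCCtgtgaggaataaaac
Il33, first entry: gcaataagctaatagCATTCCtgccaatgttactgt
Il33, second entry: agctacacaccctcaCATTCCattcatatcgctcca
The motif began 141, 236, 131 and 107 bases before the start in these promoters.

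The pattern most like that of Cyr61 was found in Gramd4 (r = 0.991), Zg16 (0.986) and Serpinb1a (0.984), that of Yap1 in Ccne2 (0.993), Snx16 (0.987) and AI597468 (0.982), and that of Ereg in Luc7l2 (0.990), Akr1e1 (0.983) and Cdc14b (0.983). For Areg they were Apol7b (0.990), Kdm2a (0.989) and Tmem66 (0.977), and for Anxa1, among 13323 genes, Pigb (0.944), AC073947.1 (0.933) and Gm6685 (0.918). Zg16 encodes a lectin of goblet cell granules. It was most abundant, as was Cyr61, in normal cys replicate 4. By rank the likeness of the 3 genes to Cyr61 was lower (Spearman rho 0.857, 0.893 and 0.893). All genes in this paragraph were picked as the highest of many over the same 7 libraries, so their likeness is a description only.

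**Figure D4:**
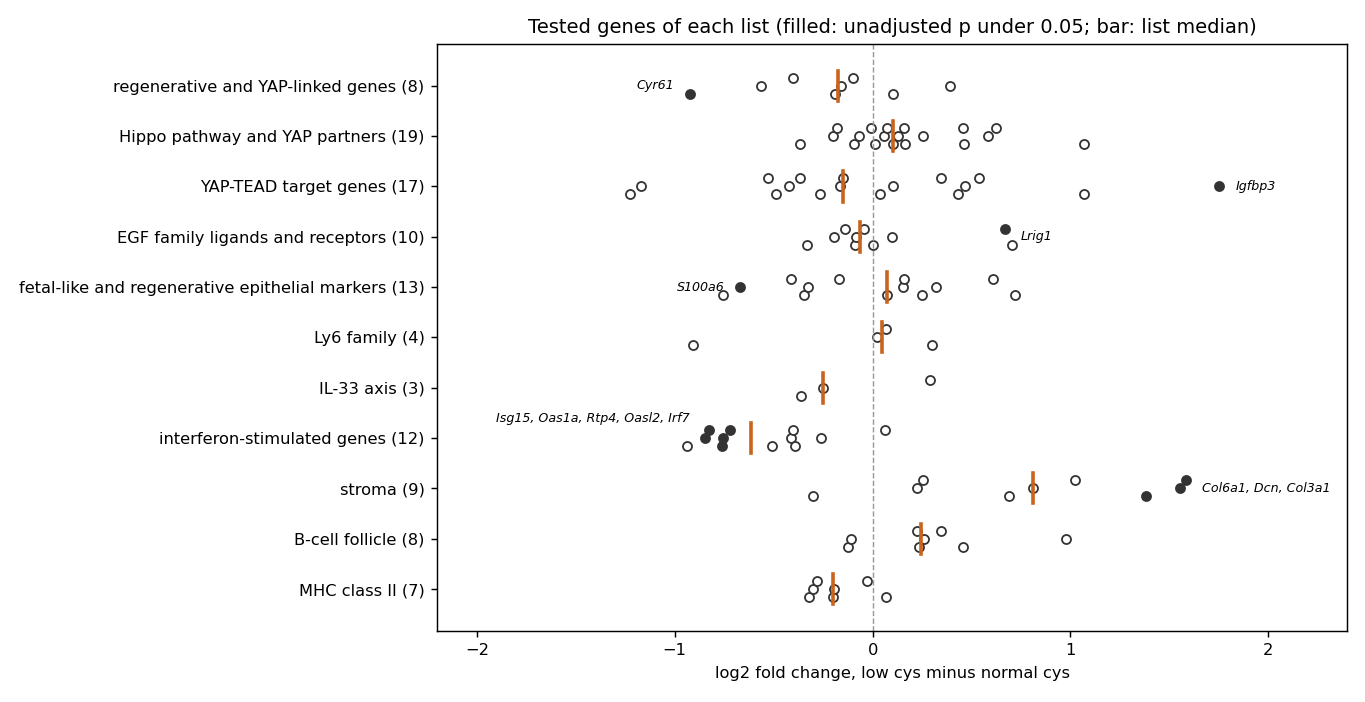
Log2 fold change, low cys minus normal cys, of each tested gene in the lists around the 9 genes, with the number tested in brackets. Filled points have an unadjusted p under 0.05 and are named, and orange bars are list medians; of the lists plotted, stroma (median 0.81) and the interferon-stimulated genes (-0.61) stand furthest from 0.

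Among cell type markers the stromal genes had 8 of 9 estimates higher on low cys, with a median of 0.81. Dcn (1.55), Col3a1 (1.58) and Col6a1 (1.38) were above the normal cys libraries in every low cys library, each with an edgeR adjusted p of 0.794. Smooth muscle genes had 7 of 7 estimates higher (median 1.44), with Des (1.89) and Actg2 (2.11) at an unadjusted p under 0.05, but the diets overlapped: the mean log2 CPM of the list was 1.97, 1.27, 0.71 and 0.08 on normal cys and 0.88, 3.33 and 2.16 on low cys, highest in replicate 2. Endothelial genes had 7 of 8 estimates higher (median 0.73), with Lyve1 at 0.55 and Tie1 at -0.82. Of the epithelial genes 9 of 10 estimates were lower (median -0.17), among them Krt20 at -0.41 (edgeR unadjusted p = 0.0493). The mean log2 CPM of that list was 9.94 to 10.08 on normal cys and 9.80 to 9.92 on low cys, without overlap. Crypt and proliferation genes had 9 of 10 estimates higher (median 0.52), with Myc at 0.74 (edgeR unadjusted p = 0.125) and Axin2 at -0.43 (unadjusted p = 0.0745). Their mean log2 CPM overlapped, at 3.09 to 4.62 on normal cys and 3.94 to 4.62 on low cys. Leukocyte genes had 6 of 10 higher (median 0.06), with Lyz2 at 0.55 and Csf1r at 0.41. No tested endothelial, crypt or leukocyte gene had an unadjusted p under 0.05, and the diets overlapped for each. The part of these cell types in the levels of the 9 genes was not tested beyond the stromal score. That score was fitted as a term for the 8 tested genes, and it separates the diets by itself.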

How the data were processed

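Polyadenylated RNA of 7 scraped ileum samples was sequenced after TruSeq stranded library preparation. The authors trimmed reads (TrimGalore), removed ribosomal reads, aligned to GRCm38 with STAR and counted exons with featureCounts, and deposited raw counts per gene without normalization; the strand setting of the counting is not given in the sources used here. Genes were kept by filterByExpr (minimum count 10, minimum total 15), scaled by TMM and tested by the robust quasi-likelihood test of edgeR (version 4.0.16, R 4.3.3), with diet as the only term and Benjamini-Hochberg adjustment over 14869 genes. Log2 CPM used a prior count of 2. Single values were compared by two-sided exact permutation. DESeq2 (1.42.0), limma-voom (limma 3.58.1), other scalings and filters, the stroma score as covariate and leaving out each library were alternatives. The fit was tested on simulated counts drawn with the same spread for every gene. That test does not cover genes as variable as Ly6a, Clu and Il33. Depth limits low genes, and a count of 0 allows 3 counts (counting error only). Positions and overlaps came from GENCODE M21, promoters from RefSeq. Named list genes are those with an unadjusted p under 0.05 or else the 2 smallest in each list, beside the 3 genes most like each member; Tead1, Tead3, Wwtr1, Amotl2, Ankrd1, Egfr, Hbegf, Anxa2, Spp1, Il1rl1, Il13, Il5 and Cd74 were named for their role after their values were seen. The genes and lists were chosen with earlier results of these data known.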

Additional observations from a re-analysis of the deposited data

Results flagged for a closer look

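The log2 CPM of Il33 in normal cys replicate 4 stood apart from the other 3 normal cys libraries: its gap to the nearest of them was 0.882 of the whole range, above Dixon's 95% critical value for 4 samples. It was the only one of 23 groups of values examined that passed, and chance flags about 1 in 20 groups, which is 1.15 of 23. In the same library Ly6a was also lowest and Cyr61, Ereg and S100a6 highest of the 7.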

How the results depend on the processing

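Over 15 alternatives, none of the 120 fold changes of the 8 tested genes reached an adjusted p under 0.05, and 107 kept their direction. The number of genes in the genome with an adjusted p under 0.05 was 16 with DESeq2 (0 in edgeR) and 0 to 1 when each library was left out in turn, with 1 without normal cys replicate 2; at an unadjusted p under 0.05 it ran from 258 (without low cys replicate 1) to 1763 (without normal cys replicate 1). Nominal differences among the 8, 1 in edgeR, were 0 on library size alone and 0 with limma-voom, and 0 to 1 when libraries were left out: Cyr61 lost it without normal cys replicate 3 or 4 or any of the low cys libraries, and Il33 had it without normal cys replicate 4 and with the stroma score. The number whose diets did not overlap was 2 on library size alone (Anxa1 and Cyr61) and 1 to 2 when libraries were left out, with Il33 added without normal cys replicate 4, Areg without low cys replicate 2 and Anxa1 without low cys replicate 3. The share of all genes without overlap was not counted under these alternatives. With fewer libraries any gene separates more easily, so nothing is read from these additions. Scaling by library size alone moved the median of all genes to 0.15, and the estimate for Yap1 to 0.054. With the stroma score as a term, which separates the diets by itself, estimates were 0.20 for Cyr61, 0.57 for Ereg, -0.65 for Clu, -0.12 for Anxa1 and -3.26 for Il33, and limma-voom gave 0.70 for Ly6a. Leaving out libraries gave ranges of -0.37 to 0.00081 for Areg, -0.33 to 0.072 for Ereg, -0.30 to 0.55 for Clu and -0.86 to 0.26 for Ly6a, so the direction of these 4 rested on single libraries; their causes were not tested. No paired analysis was possible because the labels give no shared replicate numbers.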
